A study of Mus musculus with 4 samples.

Results

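CatSper is the calcium channel of the sperm tail, and the 8 genes described here encode its pore-forming subunits (Catsper1, Catsper2, Catsper3 and Catsper4) and auxiliary subunits (Catsperb, Catsperd, Catsperg1 and Catsperg2). Their IGF2BP3 eCLIP-seq clusters were those with the centre inside the span of a member gene on its own strand, by GENCODE release M21 on mm10. They were 8 of the 14580 protein-coding genes with a cluster in either replicate. They held 448 of 337234 clusters in replicate 1 and 328 of 216354 clusters in replicate 2, and each of the 8 had clusters in both replicates.

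The pore of CatSper is built from 4 different but related proteins, each of which crosses the membrane several times and carries a voltage sensor. The auxiliary subunits surround the pore with large extracellular domains, and the assembled complex lies in long rows along the principal piece of the flagellum. Calcium entry through the channel drives hyperactivated motility, and male mice that lack a pore subunit are infertile. The genes are transcribed in the testis in the later stages of spermatogenesis. IGF2BP3 is an RNA-binding protein that binds mRNAs and affects their stability and translation.

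The study mapped the RNAs bound by IGF2BP3 in testes of wild type C57BL/6 mice aged 8 weeks, from germ and somatic cells together, after crosslinking with UV light. Each of 2 replicates paired an IP library, made with an antibody to IGF2BP3, with its size-matched input (SMInput), made from the same lysate with no antibody, 4 samples in all. The library totals recovered from the listed values were 5133438 IP and 8706391 SMInput reads in replicate 1, and 4637612 IP and 16696122 SMInput reads in replicate 2. A cluster is a stretch of RNA where IP reads pile up, and its log2(fold change) is the ratio of IP to SMInput reads after scaling each to its library. In whole testis, the number of cells that hold an RNA and its amount per cell cannot be told apart.

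Marker genes showed which cells contributed RNA. All 6 spermatid markers and all 4 spermatocyte markers had clusters in both replicates, with up to 665 SMInput reads in a cluster of Prm2 and up to 1795 in a cluster of Hspa2, in replicate 2. All 4 spermatogonial markers did as well, with at most 14 SMInput reads in a cluster, in Kit. Somatic cells were also represented. All 5 Leydig cell markers had clusters in both replicates, as did 4 of 5 Sertoli cell markers and 3 of 4 markers of peritubular and blood cells. Among the Leydig cell markers, Insl3 had up to 521 SMInput reads in a cluster, and no other had more than 22 (Cyp17a1), both in replicate 2. Clusters without a recovered read number, which include all those listed with a −log10(P) of 0 or 400, do not enter these maxima.

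A cluster counted as a significant peak when its log2(fold change) and its −log10(P) were both at least 2. The 8 genes had 21 significant peaks in replicate 1, 4.69% of their clusters, beside 4.92% of all clusters. In replicate 2 they had 31, 9.45% of their clusters, beside 13.2% of all clusters. The shares of the members were therefore near the background in replicate 1 and below it in replicate 2. The median log2(fold change) of these peaks was 2.76 in replicate 1 and 2.49 in replicate 2, beside 2.85 and 3.07 for all significant peaks. Their median was 12 IP and 3 SMInput reads in replicate 1 and 7 IP and 5 SMInput reads in replicate 2, close to the medians of 13 and 8 IP reads over all significant peaks with recovered reads. Fewer than 10 IP reads were behind 6 of the 21 and 21 of the 31. At 5 SMInput reads, a cluster passed with 12 IP reads in replicate 1 and with 7 in replicate 2.

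A significant peak was present in 7 members in replicate 1 and in 6 in replicate 2, and in both replicates in 5, namely Catsper1, Catsper3, Catsperb, Catsperd and Catsperg2. Among protein-coding genes with a cluster in both replicates, 46.1% had a significant peak in replicate 1, 64.6% in replicate 2 and 39.1% in both. Among those with at least 10 clusters in each replicate, which all 8 members were, the shares were 68.1%, 85.9% and 62.4%. The 5 of 8 thus stood close to the share among genes with at least 10 clusters in each replicate. With at least 10 IP reads the count was 2 (Catsper1 and Catsperg2), beside 36.6% of those genes. With both thresholds at 3 it was also 2 (Catsperb and Catsperg2), beside 15.6%. Significant peaks of both replicates overlapped each other by at least 1 base in 3 members, Catsper1, Catsperd and Catsperg2. This held for 16.6% of the genes with a cluster in both replicates and for 25.8% of those with at least 10 in each. Of the members' significant peaks, 5 in replicate 1 and 5 in replicate 2 took part in such an overlap.

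No significant peak of a member lay in a 3′UTR. Over all genes, that region held 43.2% (replicate 1) and 36.6% (replicate 2) of the significant peaks. The count was 0 of 21 (95% Wilson interval up to 15.5%) and 0 of 31 (up to 11.0%). These intervals treat peaks as independent, although some peaks touch and several come from the same gene. In the annotation the members had short 3′UTRs, from 48 bases in Catsper3 to 420 bases in Catsperg2, with a median of 130.5 bases beside 729 bases over 21951 protein-coding genes. These lengths are of 1 transcript per gene. In a 3′UTR of any basic transcript lay 5 clusters of the members in replicate 1 and 10 in replicate 2, of which 4 and 7 were in the 3′UTR measured here, while 19.4% and 34.5% of all 3′UTR clusters were significant. The closest to the thresholds were a cluster of Catsper4 at chr4:134212008-134212041 and one of Catsperg1 at chr7:29197629-29197634, which is in intron 11 of the transcript measured, both in replicate 2, each with a log2(fold change) of 2.85 and a −log10(P) of 1.64 from 4 IP and 2 SMInput reads. With regions read from all GENCODE transcripts, a choice made after seeing the data, 4.76% and 6.45% of the members' significant peaks fell in a 3′UTR.

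In coding sequence, 5 of the members' 125 clusters were significant in replicate 1, beside 5.28% of all CDS clusters, and 11 of 123 in replicate 2, beside 7.97%. Catsper1 held 8 of those 11, and the other genes 3 of 106 clusters. In introns, 14 of 311 clusters were significant in replicate 1, beside 1.94% of all intronic clusters, and 19 of 189 in replicate 2, beside 10.7%. Introns thus held 14 of the 21 and 19 of the 31 significant peaks of the members, beside 22.8% and 38.1% of all significant peaks. Of all clusters of the members, 69.4% and 57.6% were intronic, beside 57.7% and 46.7% of the clusters of all genes.

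The exonic clusters of the members had a median log2(fold change) of 0.28 in replicate 1 and 0.61 in replicate 2. The medians over all exonic clusters were 1.08 and 1.20. Those include many 3′UTR clusters, with medians of 1.76 and 1.85, whereas 125 of the members' 135 and 123 of their 139 exonic clusters were CDS. Within CDS the members had medians of 0.28 and 0.64, beside 0.76 and 0.93 over all CDS clusters, so they were lower in both replicates, by less than among exonic clusters at large. A value above 0 was found in 57.6% and 78.0% of their CDS clusters, against 81.2% and 86.8% overall. The members differed widely among themselves, with medians from −0.34 in Catsperg1 to 1.55 in Catsper1 in replicate 1, and from 0.09 to 2.02 in the same genes in replicate 2.

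**Figure D1:**
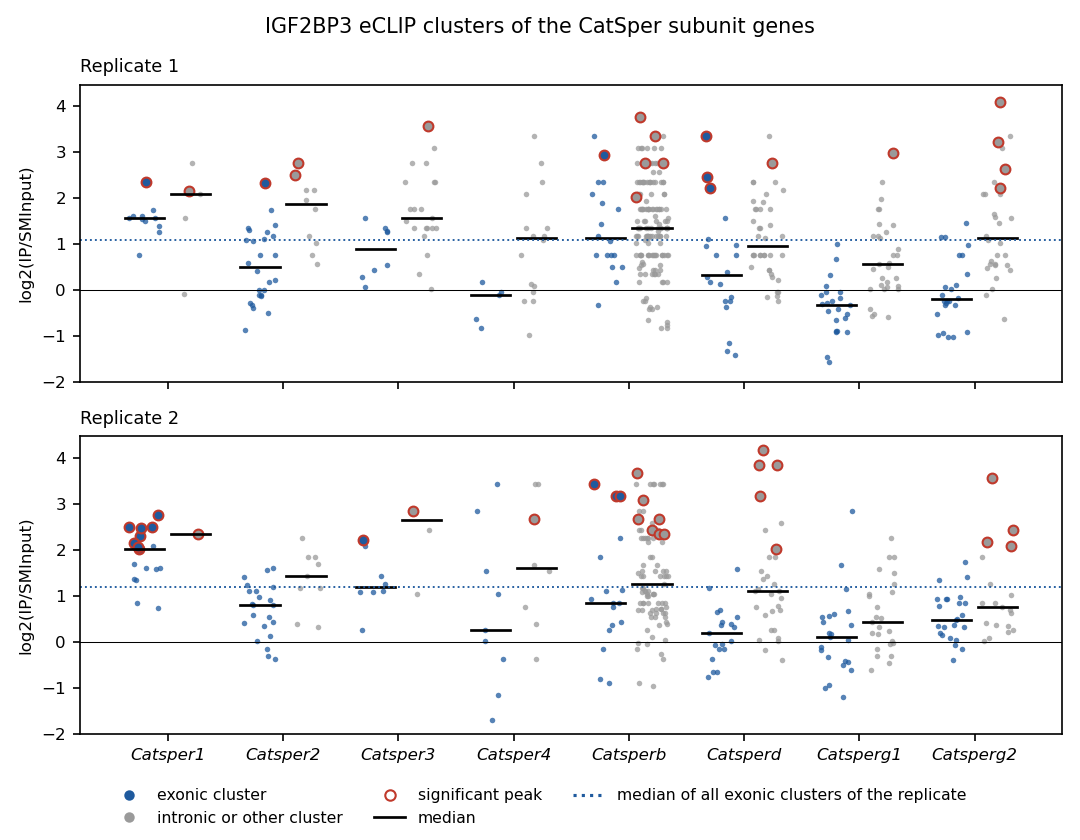
Each point is a cluster of a CatSper subunit gene, with its log2(fold change) of IP over SMInput on the y axis, in replicate 1 (top) and replicate 2 (bottom); blue points are exonic, grey points intronic or other, red rings significant peaks, black bars medians and dotted lines the median of all exonic clusters of the replicate. The exonic median of Catsper1 lies above the dotted line in both replicates, those of Catsper2, Catsper3, Catsper4, Catsperd, Catsperg1 and Catsperg2 lie below it in both, and that of Catsperb lies above it in replicate 1 and below it in replicate 2. The dotted line takes in 3′UTR clusters. All exonic clusters of Catsper3 are CDS, and their medians (0.89 and 1.19) are above those of all CDS clusters (0.76 and 0.93).

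Across 159 pairs of member clusters that overlapped between the replicates, the log2(fold change) values correlated with r = 0.64 (Pearson) and rho = 0.58 (Spearman). This describes clusters, which share libraries and genes and are not independent replicates. Each cluster of replicate 1 was paired with its largest overlap, so some clusters of replicate 2 entered several pairs. Both values were above 0 in 91 pairs and below 0 in 19. Without Catsper1, 149 pairs gave an r of 0.61.

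Catsper1 encodes the pore subunit with a histidine-rich tail at its N-terminus. Its 12 exons lie on the plus strand at chr19:5335741-5344280, with a coding sequence of 2061 bases. The 11 exonic clusters of replicate 1 had a median log2(fold change) of 1.55 and the 17 of replicate 2 a median of 2.02, higher than the exonic medians of 78.2% and 86.1% of 6877 protein-coding genes with at least 5 exonic clusters in each replicate. Here and below, the medians of the reference genes take in their 3′UTR clusters, so the ranks are not matched for region. All 11 and all 17 clusters of Catsper1 were above 0, from 0.76 to 2.35 and from 0.73 to 2.75. Catsper1 was the member with the highest exonic median in either replicate.

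Significant peaks of Catsper1 numbered 2 of 16 clusters in replicate 1 and 9 of 18 in replicate 2. The peak with the highest −log10(P), 17.1, lay in exon 4 at chr19:5339066-5339146 in replicate 2, with 45 IP and 24 SMInput reads and a log2(fold change) of 2.75 (95% interval 2.04 to 3.47). The cluster of replicate 1 at this place, chr19:5339108-5339146, had a value of 1.54 (0.59 to 2.49) from 24 IP and 14 SMInput reads. The intervals, which here and below cover counting error only, overlapped, and the cluster of replicate 1 was not significant. The next peak of replicate 2 lay in exon 6 at chr19:5339714-5339780, with a log2(fold change) of 2.47 (1.76 to 3.18), a −log10(P) of 13.2 and 40 IP and 26 SMInput reads. Replicate 1 had 47 IP and 24 SMInput reads at chr19:5339713-5339814 and a value of 1.73 (1.02 to 2.44), under the threshold on the fold change with a −log10(P) of 6.14. Between 2.02 and 2.49 lay the log2(fold change) of the other 7 peaks of replicate 2, each with 7 to 25 IP reads. Of the 9, 8 overlapped a cluster of replicate 1 and 3 a significant one, so at 8 of these places both replicates had a cluster.

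Exon 5 held the coding site of Catsper1 that was significant in both replicates, though in neither with both thresholds at 3. In replicate 1 it was a single peak at chr19:5339468-5339506 with 24 IP and 8 SMInput reads, a log2(fold change) of 2.35 (1.19 to 3.50) and a −log10(P) of 4.68. In replicate 2 the same place held a peak at chr19:5339468-5339495 with 25 IP and 16 SMInput reads, 2.49 (1.59 to 3.40) and a −log10(P) of 8.44. A second peak touched it at chr19:5339496-5339538, with 2.14 (1.24 to 3.04) and a −log10(P) of 6.04. The replicates thus had values within each other's intervals, and they shared 39 bases. The middle 30 of these, at chr19:5339472-5339501 on the plus strand of GRCm38 (mm10), are shown because this was the only coding site of the 8 genes that was significant in both. Capitals mark bases inside significant peaks of both replicates, here all 30, and the stretch ends with GGACT, a pentamer of the kind often found around m6A.
Catsper1 exon 5: CTGACCAGCCTCCACGAAGTGGCCGGGACT

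A further site of Catsper1 lay in intron 10. Replicate 1 had a peak at chr19:5343094-5343179 with 13 IP and 5 SMInput reads, a log2(fold change) of 2.14 (0.65 to 3.63) and a −log10(P) of 2.35. Replicate 2 had one inside it at chr19:5343113-5343146 with 7 IP and 5 SMInput reads, 2.33 (0.68 to 3.99) and a −log10(P) of 2.19. Both passed by a small margin, and the Benjamini-Hochberg adjusted P of the peak of replicate 1 was 0.0821.

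**Figure D2:**
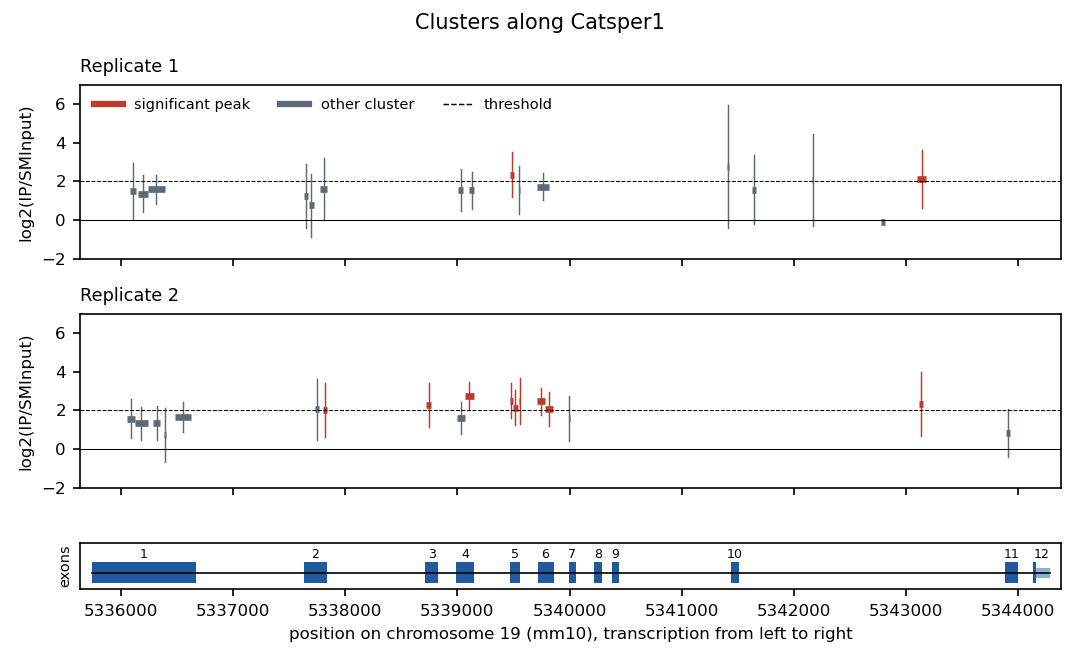
The map shows the clusters of Catsper1 as horizontal bars at their position on chromosome 19 (x axis, mm10) and at their log2(fold change) (y axis), with vertical lines for 95% intervals where read numbers were recovered, in replicate 1 (top) and replicate 2 (middle), above the 12 exons with coding parts in dark blue. Significant peaks, in red, cover exons 2 to 6 in replicate 2 and exon 5 in replicate 1, and both replicates have a peak in intron 10.

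Catsper2 encodes another pore subunit, whose loss is found in men with infertility and deafness where a neighbouring gene is deleted too. It lies on the minus strand at chr2:121392631-121413792 and had 3 significant peaks in replicate 1 and none in replicate 2. The peak with the highest −log10(P), in the 5′UTR at chr2:121413627-121413696, had 47 IP and 16 SMInput reads, a log2(fold change) of 2.32 (1.50 to 3.14) and a −log10(P) of 8.79. In replicate 2 the cluster at chr2:121413617-121413766 had 40 IP and 67 SMInput reads, a value of 1.10 (0.54 to 1.67) and a −log10(P) of 3.85. Enrichment in the 5′UTR was thus seen in both replicates and passed the thresholds in 1. The other 2 peaks of replicate 1 met no cluster of replicate 2. They lay in intron 4 at chr2:121407939-121407972, with 2.50 (0.64 to 4.36) from 10 IP and 3 SMInput reads, and at chr2:121393585-121393655, inside the gene span but outside its basic transcript, with 2.76 (0.53 to 5.0) from 8 IP and 2 SMInput reads. In replicate 2 the cluster with the highest −log10(P), 4.01, lay in exon 6 at chr2:121406818-121406862, with a log2(fold change) of 1.22 (0.61 to 1.84). The exonic medians of Catsper2 were 0.50 over 26 clusters and 0.80 over 22 clusters.

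Catsper3 and Catsper4 encode the remaining pore subunits. Catsper3, on the plus strand at chr13:55784568-55808998, had 8 exonic clusters in each replicate with medians of 0.89 and 1.19, near the reference medians of 1.07 and 1.26 over the 6877 genes. Its significant peak in replicate 1, in intron 2 at chr13:55788854-55788866, had 7 IP reads and 1 SMInput read, a log2(fold change) of 3.57 (0.55 to 6.59) and a −log10(P) of 2.28. In replicate 2 there were 2 elsewhere. They lay in exon 1 at chr13:55784629-55784703, with 2.21 (0.79 to 3.64) from 9 IP and 7 SMInput reads, and in intron 2 at chr13:55790639-55790738, with 2.85 (0.85 to 4.85) from 6 IP and 3 SMInput reads. The exon 1 peak overlapped a cluster of replicate 1 with a value of 0.06, so the replicates did not share a peak of Catsper3.

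Catsper4, on the minus strand at chr4:134211970-134227383, had exonic medians of −0.11 over 5 clusters and 0.26 over 9 clusters. Only 2.21% and 4.87% of the 6877 genes were lower, in a ranking not matched for region. Its cluster with the highest −log10(P) in replicate 1, 1.91, lay in intron 3 at chr4:134224614-134224676 and was not significant, with a log2(fold change) of 3.35 (0.29 to 6.40) from 6 IP reads and 1 SMInput read. The significant peak of replicate 2 lay in intron 9 at chr4:134213477-134213543, with 2.66 (0.88 to 4.43), a −log10(P) of 2.49 and 7 IP and 4 SMInput reads. It met no cluster of replicate 1.

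Among the auxiliary subunits, Catsperb has the longest gene, with 27 exons over 221357 bases of the plus strand at chr12:101404653-101626009. It held 178 and 110 clusters, of which 160 and 93 were intronic, and 6 and 10 were significant. Between the replicates, none of these significant peaks overlapped. A cluster of the other replicate that was not significant overlapped 1 of the 6, with a log2(fold change) of 0.76. The same held for 4 of the 10, with values from 0.76 to 3.08. In replicate 1 the peaks with the highest −log10(P) both lay in intron 14, at chr12:101512701-101512826 with a log2(fold change) of 3.35 (1.19 to 5.51) from 12 IP and 2 SMInput reads, and at chr12:101513788-101513906 with 2.76 (0.94 to 4.59) from 12 IP and 3 SMInput reads. In replicate 2 they lay in intron 15, at chr12:101540581-101540636 with 3.66 (1.39 to 5.92) from 7 IP and 2 SMInput reads, and at chr12:101529211-101529285 with 3.07 (1.12 to 5.02) from 7 IP and 3 SMInput reads. The other 4 peaks of replicate 1 had values from 2.03 to 3.76 with 8 to 12 IP reads, and the other 8 of replicate 2 from 2.33 to 3.43 with 5 to 9 IP reads. Of these 8, the peak at chr12:101554069-101554171 lay in an exon of another gene on the same strand, Gm24542. The exonic medians of Catsperb were 1.12 over 18 clusters and 0.85 over 17.

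Catsperd is needed for the channel complex to be stable in sperm, and its gene lies on the plus strand at chr17:56628143-56664456. It had 4 significant peaks in replicate 1, of which 3 lay in coding sequence, and 5 in replicate 2, all of them in introns. Exon 20 held the 2 peaks of replicate 1 with the highest −log10(P), at chr17:56662660-56662684 with 3.35 (1.19 to 5.51) from 12 IP and 2 SMInput reads and, touching it, at chr17:56662685-56662723 with 2.46 (0.85 to 4.08) from 13 IP and 4 SMInput reads. Replicate 2 had no cluster at either place. The other 2 peaks of replicate 1 had values of 2.22 and 2.76. The site significant in both replicates lay in intron 6, at chr17:56639983-56640056 in replicate 1 with 2.76 (0.53 to 5.0) from 8 IP and 2 SMInput reads, and at chr17:56640040-56640107 in replicate 2 with 4.17 (1.07 to 7.27) from 5 IP reads and 1 SMInput read. The adjusted P of the peak of replicate 1 was 0.104, so the site was not shared with the adjusted P held to 0.05. The 17 bases inside both peaks are shown in capitals, within chr17:56640033-56640062 on the plus strand of GRCm38, because they are the smallest stretch on which a shared site of the members rests.
Catsperd intron 6: tcctgatATGGAAGTGTGCACGGAgggatt
The next peak of replicate 2 by −log10(P) lay across the edge of exon 5 at chr17:56635606-56635678, with its centre in intron 5, a value of 2.02 (0.64 to 3.39) and 9 IP and 8 SMInput reads. The other 3 had values from 3.17 to 3.85 and 4 or 5 IP reads. The exonic medians were 0.33 over 20 clusters and 0.20 over 19.

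Catsperg1 and Catsperg2 are near copies on the minus strand of chromosome 7, at chr7:29181321-29214035 and chr7:29697219-29727032. Their coding sequences were 96.6% identical at aligned bases, and 55.0% of the stretches of 30 bases in the transcript of Catsperg1 also occurred in that of Catsperg2. No other pair of members shared such a stretch. The division of reads between the copies is therefore uncertain. The exonic clusters of both were low. Catsperg1 had medians of −0.34 and 0.09 over 23 clusters in each replicate, and 0.90% and 2.86% of the 6877 genes were lower. Catsperg2 had medians of −0.21 and 0.48 over 24 clusters in each, with 1.58% and 10.7% of genes lower. These ranks too are not matched for region.

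Catsperg1 had 1 significant peak in replicate 1, in intron 26 at chr7:29182556-29182662, with 2.98 (1.19 to 4.78), a −log10(P) of 3.75 and 14 IP and 3 SMInput reads. Replicate 2 had no cluster there and no significant peak in the gene. Its cluster with the highest −log10(P) in replicate 2, 1.81, lay in intron 1 at chr7:29211050-29211135, with a value of 0.99 (0.22 to 1.76) from 21 IP and 38 SMInput reads. Catsperg2 had 4 significant peaks in each replicate, all with the centre in an intron of the basic transcripts. The peak at chr7:29721102-29721137 in replicate 1 reached into an exon of protein-coding transcripts from 29721042 to 29721114. The peak at chr7:29712871-29712942 in replicate 2 lay inside exons of retained-intron transcripts, such as that from 29712727 to 29713025.

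The site of Catsperg2 with the highest −log10(P) lay in intron 3 and was significant in both replicates. In replicate 1 it consisted of touching peaks at chr7:29724262-29724277, with 20 IP and 2 SMInput reads, 4.08 (1.99 to 6.18) and a −log10(P) of 6.63, and at chr7:29724214-29724261, with 22 IP and 6 SMInput reads, 2.64 (1.33 to 3.94) and a −log10(P) of 4.86. In replicate 2 it was 1 peak at chr7:29724214-29724276 with 13 IP and 4 SMInput reads, 3.55 (1.93 to 5.17) and a −log10(P) of 5.63. The replicates agreed on 63 bases and had overlapping intervals. An annotated transcript of Catsperg2 without a coding sequence has an exon from 29723568 to 29724246, which on the minus strand begins inside the site. The middle 30 bases, at chr7:29724230-29724259 on the minus strand of GRCm38, are shown since the site had the highest fold change of those shared between replicates in which each peak held more than 10 IP reads, and all 30 are in capitals as bases inside peaks of both.
Catsperg2 intron 3: TTATTTTTAATAGGTCTATACATGTGCATG
The most similar stretch of Catsperg1, at chr7:29209432-29209581, was 98.0% identical over the 148 bases aligned with the peak at chr7:29724214-29724261 and its flanks. It held 1 cluster in each replicate, with log2(fold change) values of 2.35 from 6 IP and 2 SMInput reads and 2.26 from 4 IP and 3 SMInput reads, neither of them significant. The next peak of Catsperg2 in replicate 2 by −log10(P) lay in intron 22 at chr7:29704467-29704540, with 2.09 (0.93 to 3.25) from 13 IP and 11 SMInput reads. The other 2 peaks had values of 2.22 and 3.22 in replicate 1 and of 2.17 and 2.43 in replicate 2.

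The RNA strand was searched for GAACA and for AAACC, and for the related pentamers TGGAC and GGACT, in windows of 100 bases around the centre of each peak. TGGAC and GGACT overlap by 4 bases. GGACT was in 3 of the 21 windows of the members' significant peaks in replicate 1 and in 5 of 31 in replicate 2, and in 9.92% and 9.08% of the windows of all significant peaks and 8.52% and 8.66% of those of all clusters. GAACA was also in 3 and 5 windows, beside 8.89% and 8.38% of all significant peaks and 9.38% and 8.96% of all clusters. TGGAC was in 2 windows in each replicate, beside 9.64% and 8.90% of all significant peaks and 8.75% and 9.12% of all clusters, and AAACC was in 1 window in each, beside 8.65% and 8.11%, and 7.68% and 7.24%. None of the 4 was present in 14 and 21 of the windows, beside 11626 of 16579 and 20512 of 28494 windows of all significant peaks. Windows of close peaks overlapped, 4 of the 21 and 7 of the 31 with another, and the 5 windows with GGACT in replicate 2 held it at 4 places, as the touching peaks in exon 5 of Catsper1 shared 1. With so few windows the shares of the members could not be told from the background.

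The other genes of the pathway were 8 of the CatSper complex or associated with it and 10 of sperm ion transport and motility signalling. Catspere1, in the former list, is annotated as an unprocessed pseudogene and had 0 clusters in either replicate. Of the former, 3 had a significant peak in both replicates, Efcab9, C2cd6 and Slco6c1, and 14 of the 201 clusters of this list were significant in replicate 1 and 20 of 127 in replicate 2. Of the latter, 8 had one in both, Kcnu1, Lrrc52, Slc9c1, Adcy10, Atp2b4, Abhd2, Prkaca and Slc26a8, with 36 of 464 and 67 of 354 clusters of the list significant. Of the 18 genes, 14 had clusters in both replicates and 11 of these a significant peak in both, beside 39.1% of protein-coding genes, and of the 11 with at least 10 clusters in each replicate 9 did, beside 62.4%. Over both lists 7.52% and 18.1% of the clusters were significant, beside 4.92% and 13.2% of all clusters and 4.69% and 9.45% for the 8 subunits. In 3′UTRs lay 23 of their 50 significant peaks in replicate 1 and 29 of 87 in replicate 2, near the shares of 43.2% and 36.6% over all genes. These came from 6 of the 18 genes in replicate 1 and 5 in replicate 2, with 10 and 12 in Atp2b4. In the list of the CatSper complex, Slco6c1 alone had any, 3 and 2, so that Efcab9 and C2cd6 had none there, like the subunits. Slc9c1, the sperm sodium-proton exchanger, had 7 and 22 significant peaks, and the one with the highest −log10(P), in coding sequence in each replicate, had a log2(fold change) of 3.82 with 75 IP and 9 SMInput reads in replicate 1 and of 3.72 with 66 IP and 18 SMInput reads in replicate 2.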

How the data were processed

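The authors trimmed adapters (cutadapt), removed ribosomal RNA reads (Bowtie2), aligned reads to mm10 (STAR), collapsed duplicates by molecular identifier and called clusters in each IP with Clipper. For each replicate the deposited table gives, per cluster, the authors' −log10 P value of IP against SMInput reads (chi-square or Fisher's exact test, listed from 0 to 400) and the authors' log2 fold change, scaled by library totals. These are the only values of the tables, and were used as deposited.

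Read numbers were recovered as the whole numbers that return both values (tolerance 1e-05), for 99.6% and 99.4% of clusters between 0 and 400. Clusters listed at 0 or 400 have none. Intervals are the log2 ratio ± 1.96 standard errors from these reads. The recovery was also run on simulated data, and its outcome there is not given here. Regions came from basic GENCODE M21 transcripts (a centre in several regions was counted in the order 3′UTR, CDS, 5′UTR, other exon, intron). Sequences came from GRCm38.

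All 8 genes were named. Every significant peak was given where a gene had at most 3 in a replicate, otherwise the 2 with the highest −log10(P) and the range of the rest. A gene with none was given by its cluster with the highest −log10(P). Of the pathway lists, genes significant in both replicates were named. Members and lists were chosen with earlier results of these data known. Alternatives covered thresholds, adjusted P, gene assignment, read minimums, overlap, region order and each replicate alone. Python 3.11.15, pandas 2.3.3, scipy 1.17.1, Biopython 1.88 and matplotlib 3.10.9 were used.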

Additional observations from a re-analysis of the deposited data

How the results depend on the processing

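Of 49 comparisons with an alternative setting, 38 left a count within 1.5 times the main count, a median within the spread between replicates or a 3′UTR share within its 95% Wilson interval, and 11 did not. Those 38 include 3′UTR shares of 4.76% and 6.45% with all GENCODE transcripts, in place of 0 in both replicates, because the intervals reached 15.5% and 11.0%. With both thresholds at 3, the members had 4 and 2 significant peaks in replicates 1 and 2 in place of 21 and 31, 2 members (Catsperb and Catsperg2) had one in both replicates in place of 5, and 1 (Catsperg2) had overlapping ones in place of 3. Of protein-coding genes with at least 10 clusters in each replicate, 15.6% and 7.47% did. Catsper1 then had no significant peak in either replicate, so its exon 5 site was lost. The 4 and 2 peaks were 0.893% and 0.610% of their clusters, beside 1.18% and 2.42% of all clusters. When the fold change needed only a log2 of 1 or more, replicate 1 had 37, or 8.26% beside 7.24% of all clusters. Both this share and that by the main thresholds (4.69% beside 4.92%) were near the background. In replicate 2, 46 of 328 clusters passed, beside 18.4% of all. With Benjamini-Hochberg adjusted P at most 0.05, replicate 1 had 11, or 2.46% beside 3.24%, replicate 2 had 8.84% beside 10.4%, 4 members had a peak in both replicates, without Catsper3, and 2 had overlapping peaks, beside 46.1% and 22.4% of those genes. The sites in intron 10 of Catsper1 and intron 6 of Catsperd were no longer shared, and Catsper1 kept its site in exon 5. With the nearest transcription start site replicate 1 had 13 of 338 clusters, or 3.85% beside 4.92%. Catsper4 and Catsperg1 then had no significant peak in either replicate, and Catsperd had 1 in place of 4 in replicate 1. With at least 10 IP reads, replicate 2 had 10, or 3.05% beside 5.09%, replicate 1 had 3.35% beside 3.50%, and 2 members, Catsper1 and Catsperg2, had a peak in both replicates, beside 36.6% of those genes. The cause of these shifts was not tested beyond the construction of each setting. Each replicate alone gave 7 (replicate 1) and 6 (replicate 2) members with a significant peak, beside 68.1% and 85.9% of those genes.

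With at least 10 recovered reads in IP and SMInput together, the exonic medians were 1.07 and 0.85 in place of 0.28 and 0.61. This comes from how the setting is built. It drops every cluster without recovered reads, 59 of 135 in replicate 1 and 33 of 139 in replicate 2, of which 59 and 31 were listed at 0, and so selects for enriched clusters. With such clusters kept, settings chosen after seeing the data, the medians were 0.20 and 0.53, or 0.38 and 0.60 where only those whose lowest possible read numbers reach 10 were kept. The planned setting therefore says nothing about low read numbers.

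No paired analysis was possible because clusters were called in each IP separately and 0 clusters of the members had the same bounds in both replicates, so that no cluster of theirs had read numbers of all 4 libraries. Each listed value already sets an IP against its own SMInput. There were 2 replicates of 1 condition, no test between groups was made, and intervals cover counting error only.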
